A study of Mus musculus with 2 samples.

Results

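The genes described here are the 6 that encode the fibrillar collagen chains of types I, III and V in the mouse: Col1a1, Col1a2, Col3a1, Col5a1, Col5a2 and Col5a3. They were matched by symbol among the 32285 genes counted in single-cell RNA sequencing libraries of syngeneic ovarian tumors, and all 6 were found. The libraries came from subcutaneous tumors of the SO line, a mouse ovarian cancer line that lacks p53 and carries myc and H-ras. One library, called WT, pooled the tumors of 4 wild-type mice, and the other, called TSK, pooled those of 4 tight skin mice, which are heterozygous for a duplication inside Fbn1, the gene of the microfibril protein fibrillin-1. All mice were C57BL/6 females, 6 to 8 weeks old. The duplication is carried by every cell of the host, whereas the injected cancer cells were the same line in both genotypes. Because each genotype gave 1 pooled library, no test between genotypes was possible, and mouse, pool, library and genotype cannot be told apart.

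Fibrillar collagens are the rope-like proteins that give connective tissue its tensile strength. Their chains wind into triple helices inside the cell, are trimmed of their propeptides outside it, and assemble into fibrils that lysyl oxidases crosslink. Type I collagen usually combines a pair of α1 chains with an α2 chain, type III is made of α1 chains alone and is abundant in stretchable tissue, and type V is buried inside type I fibrils, where it helps to start a fibril and to limit its width. Fibroblasts are their main source in skin and in tumor stroma.

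In build GRCm38 (GENCODE M21), Col1a1 (ENSMUSG00000001506) lies on chromosome 11 from 94936224 to 94953042 and Col1a2 (ENSMUSG00000029661) on chromosome 6 from 4504814 to 4541544, both on the plus strand. Col3a1 (ENSMUSG00000026043) and Col5a2 (ENSMUSG00000026042) are neighbours on chromosome 1, with Col3a1 from 45311538 to 45349706 on the plus strand and Col5a2 from 45374321 to 45503282 on the minus strand. Col5a1 (ENSMUSG00000026837) spans 27886425 to 28039514 on the plus strand of chromosome 2, and Col5a3 (ENSMUSG00000004098) spans 20770050 to 20815067 on the minus strand of chromosome 9. The 250 bases before the RefSeq start (GRCm38.p6) were at hand for 4 of the 6 genes and were not matched for Col1a1 and Col5a2. RefSeq places the start of Col1a2 inside the GENCODE span given above. The sequences of 3 are shown because these genes had different patterns below. Col1a2 is a type I chain and, like all 6 genes, was held mainly by fibroblast-like cells. Col3a1 was also the leading chain of cancer-like cells. Col5a3 differed most between the libraries in fibroblast-like cells when scaled by total UMIs and under the naming used. Capitals mark the CCAAT box, the GC box with the letters GGGCGG, and the TATA box with the letters TATAAA. Both strands were searched, so a reverse complement is in capitals too, and no match overlapped another.
Col1a2 (chr6:4505368-4505617, plus strand): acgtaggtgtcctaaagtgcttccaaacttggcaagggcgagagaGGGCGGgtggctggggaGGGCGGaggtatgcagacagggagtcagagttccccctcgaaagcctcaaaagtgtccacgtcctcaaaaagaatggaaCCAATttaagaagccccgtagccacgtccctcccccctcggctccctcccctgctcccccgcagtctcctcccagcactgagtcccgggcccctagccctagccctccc
Col3a1 (chr1:45311288-45311537, plus strand): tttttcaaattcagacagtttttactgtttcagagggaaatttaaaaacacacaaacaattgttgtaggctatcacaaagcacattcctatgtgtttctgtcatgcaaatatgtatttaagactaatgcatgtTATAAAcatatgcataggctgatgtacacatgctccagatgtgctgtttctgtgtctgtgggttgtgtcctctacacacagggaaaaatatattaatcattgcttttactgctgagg
Col5a3 (chr9:20815068-20815317, minus strand): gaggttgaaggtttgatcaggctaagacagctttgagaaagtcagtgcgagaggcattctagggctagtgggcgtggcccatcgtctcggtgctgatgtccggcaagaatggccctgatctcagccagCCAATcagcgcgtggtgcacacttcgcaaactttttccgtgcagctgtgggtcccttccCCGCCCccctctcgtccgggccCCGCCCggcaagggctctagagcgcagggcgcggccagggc
The Col1a2 and Col5a3 windows each held 1 CCAAT box and 2 GC boxes, with 62.0% and 62.8% G and C. The Col3a1 window held 1 TATA box, neither of the other motifs and 35.2% G and C, and the Col5a1 window, not shown, held 2 GC boxes and 76.4% G and C. The median G and C content was 52.4% over 32851 promoters of the same length, of which 33.8% held a CCAAT box, 32.7% a GC box and 12.4% a TATA box. These matches describe the sequence and are not binding sites.

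The deposited counts are unique molecular identifiers (UMIs), each standing for 1 captured RNA molecule, per gene and cell barcode. The WT library held 21225411 UMIs in 2332 barcodes and the TSK library 48296765 UMIs in 4436 barcodes. A set of 263 barcodes occurred in both libraries and was left out. After limits of at least 200 genes, at least 500 UMIs and at most 10% mitochondrial UMIs, 1442 WT cells (median 7658 UMIs) and 2961 TSK cells (median 7302 UMIs) were kept, with 236605 UMIs of the 6 genes. Doublets were not called. Instead, cells that reached the marker limit of more than 1 lineage were counted, and the values without them are given where they matter. Levels are CPM, the UMIs of a gene in every 1000000 UMIs of the cells concerned, with exact Poisson intervals, shares have exact binomial intervals and ratios exact conditional intervals, all at 95%. These intervals describe the error of counting alone and hold nothing of the spread from mouse to mouse. CPM of 3′ UMIs is not scaled by transcript length, so different genes are set beside each other only as shares of their common sum, followed from lineage to lineage.

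Lineages were named cell by cell from marker genes that included none of the 6 collagens, and the names say only which cells a class resembles. A cell took the lineage in which its share of marker UMIs was highest relative to the typical cell of that lineage, if the score reached 0.25 and at least 3 markers were detected. The rule was set after the data had been seen. Of 11 such rules it gave fibroblast-like cells that overlapped best with a fibroblast cluster (352 cells in both, 89.3% of the cells in either). That clustering was made without the 6 genes and the genes of the collagen lists used below. Collagen genes outside these lists were not barred from it. Over all lineages the rule gave 73.7% of cells the name of their cluster, and other rules gave up to 75.4%. The classes are ranges of a score and not types. There were 378 fibroblast-like cells (143 WT, 235 TSK), with medians of 24378 UMIs in WT and 11145 in TSK. The study's own filter also removed cells above 10000 UMIs, which was not done here except as an alternative. In the fibroblast-like class, 12 WT and 26 TSK cells scored below 0.5. Its fibroblast markers, which named the cells and so were bound to be high, had medians of 11353 and 10982 CPM. The summed cancer, macrophage, neutrophil and lymphocyte markers had medians of 0 CPM in both libraries. Endothelial markers had medians of 211 CPM in WT and 62.1 CPM in TSK, and mural markers 39.7 and 60.1 CPM. There were 66 mural-like cells (pericytes and smooth muscle, 16 WT and 50 TSK), 142 endothelial-like, 1091 cancer-like (88 WT, 1003 TSK), 821 macrophage-like, 184 neutrophil-like and 753 lymphocyte-like cells, and 954 cells stayed unnamed. Scores below 0.5 were found in 3 WT and 8 TSK mural-like cells and in 8 WT and 142 TSK cancer-like cells. Mural-like cells also carried fibroblast markers, with medians of 1769 CPM in WT and 2013 CPM in TSK, and cancer-like cells had 485 and 391 CPM of them. The fibroblast markers Dcn, Dpt, Postn and Pi16 and the mural markers Rgs5, Abcc9 and Kcnj8 were present in their classes in both libraries. Cancer-like cells carried Lgals7, Cdkn2a and Hmga2, while Msln and Upk3b were at 0 to 4 UMIs per library in them. The keratins of the same marker list differed between the libraries in these cells, with Krt18 at 1080 CPM in WT and 311 CPM in TSK, Krt19 at 97.4 and 6.61 CPM, Krt8 at 89.7 and 6.88 CPM and Krt7 at 11.4 and 0 CPM.

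The first question was which cells held the fibrillar collagen transcripts. Fibroblast-like cells held 87.5% of the UMIs of the 6 genes (interval 87.3 to 87.6%) with 9.92% of all UMIs. Cancer-like cells held 6.79% with 58.5% of all UMIs, mural-like cells 3.05% with 1.51%, and unnamed cells 1.48% with 7.06%. Endothelial-like cells held 0.808%, and macrophage-like, lymphocyte-like and neutrophil-like cells held 0.292%, 0.0917% and 0.0152%. The fibroblast-like part was 93.3% in WT and 81.1% in TSK. The cancer-like part was 1.61% in WT and 12.5% in TSK, where cancer-like cells made up 33.9% of the cells, against 6.10% in WT.

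**Figure D1:**
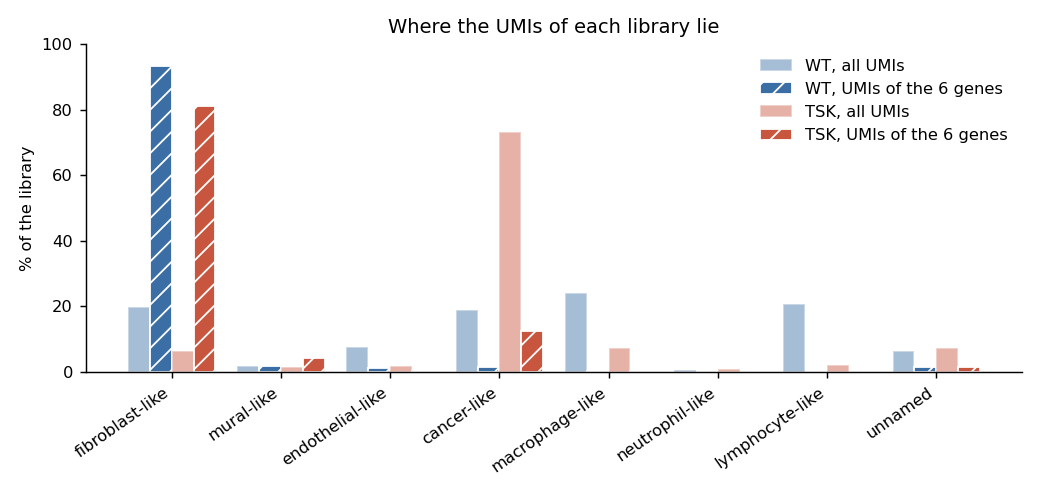
Percent of each library's UMIs (y axis) by lineage (x axis). Pale bars are the UMIs of all genes and hatched bars the UMIs of the 6 fibrillar collagen genes, in blue for WT and red for TSK. Fibroblast-like cells hold 19.8% of all UMIs but 93.3% of the collagen UMIs in WT, and 6.24% and 81.1% in TSK.

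The level of the 6 genes together was 34170 CPM in WT and 32141 CPM in TSK fibroblast-like cells, so that about 3% of their transcripts were fibrillar collagen. It was 7933 and 7459 CPM in mural-like cells, 1083 and 648 CPM in endothelial-like cells and 614 and 421 CPM in cancer-like cells. Macrophage-like cells had 130 and 48.6 CPM and lymphocyte-like cells 44.98 and 61.0 CPM, and the intervals of these classes overlapped in the TSK library (41.4 to 56.7 and 46.3 to 78.9 CPM). The order of fibroblast-like, mural-like, endothelial-like, cancer-like and macrophage-like cells was the same in both libraries, and neighbours in that order did not overlap in their intervals. Neutrophil-like cells had 12.4 CPM (1 UMI) and 94.1 CPM. Lymphocytes are not known to make these chains, so their level was used as the background. It was lower than the macrophage-like level in WT. In WT lymphocyte-like cells the 6 genes stood in nearly the proportions of WT fibroblast-like cells, with 33.3% Col1a1, 27.7% Col1a2 and 32.1% Col3a1 of 159 UMIs.

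Among type I chains, Col1a1, which encodes the α1 chain, was at 10154 CPM in WT and 8531 CPM in TSK fibroblast-like cells, at 2813 and 3208 CPM in mural-like cells and at 97.1 and 52.4 CPM in cancer-like cells. Col1a2, the α2 chain, was at 9744 and 10015 CPM, 1284 and 1676 CPM, and 40.4 and 50.4 CPM. Both genes lay at 11.6 to 16.8 CPM in lymphocyte-like cells. The type III gene Col3a1 was at 11812 and 10889 CPM in fibroblast-like, 2121 and 1004 CPM in mural-like and 394 and 264 CPM in cancer-like cells, against 14.4 and 25.3 CPM in lymphocyte-like cells. In cancer-like cells the intervals of Col1a1, Col1a2 and Col3a1 lay above the lymphocyte-like ones in both libraries. Those of Col1a1 and Col3a1 also lay above the macrophage-like ones. The interval of Col1a2 overlapped the macrophage-like one in WT (33.8 to 47.9 CPM in cancer-like and 32.8 to 45.1 CPM in macrophage-like cells).

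Among type V chains, Col5a1 was at 875 and 793 CPM in WT and TSK fibroblast-like cells, 427 and 471 CPM in mural-like cells and 70.0 and 39.3 CPM in cancer-like cells. Col5a2 was at 1296 and 1454 CPM in fibroblast-like and 945 and 697 CPM in mural-like cells, but only at 0.925 CPM (3 UMIs) in WT and 7.33 CPM in TSK cancer-like cells. Col5a3, which encodes the least widely expressed type V chain, was at 289 and 460 CPM in fibroblast-like and at 343 and 403 CPM in mural-like cells. Its intervals in these classes overlapped in each library (271 to 307 and 280 to 416 CPM in WT, 435 to 485 and 356 to 455 CPM in TSK), unlike those of the other 5 members, which were higher in fibroblast-like cells. In lymphocyte-like cells each type V gene had between 1 and 6 UMIs per library. Col5a2 was the one member whose cancer-like interval overlapped the lymphocyte-like one in both libraries (0.191 to 2.70 and 0.623 to 3.69 CPM in WT, 6.44 to 8.30 and 0.651 to 9.22 CPM in TSK).

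**Figure D2:**
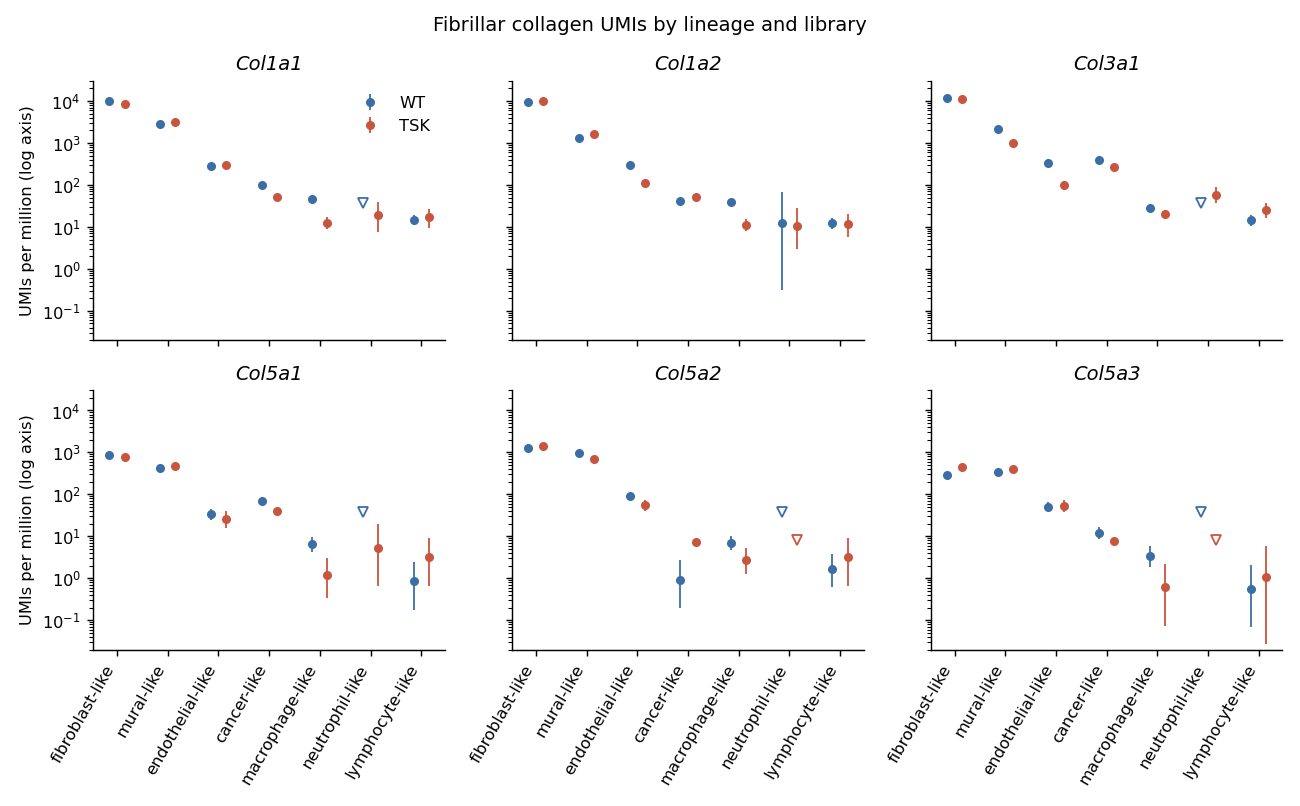
Level of each gene in CPM (y axis, log scale) by lineage (x axis), in blue for WT and red for TSK. Points are summed UMIs with exact 95% Poisson intervals, and open triangles mark classes with no UMI at the level that 3 UMIs would give. Col5a2 is the gene whose cancer-like intervals overlap the lymphocyte-like ones in both libraries.

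The makeup of the collagen differed between the lineages. In fibroblast-like cells the UMIs of Col1a1, Col1a2 and Col3a1 were 29.7%, 28.5% and 34.6% of the 6-gene sum in WT and 26.5%, 31.2% and 33.9% in TSK, and the type V genes shared the rest. Mural-like cells had more Col1a1 (35.5% in WT, 43.0% in TSK), less Col1a2 (16.2% and 22.5%) and less Col3a1 (26.7% and 13.5%). Their ratio of Col1a1 to Col1a2 UMIs was 2.19 (interval 1.94 to 2.48) in WT and 1.91 (1.78 to 2.06) in TSK, against 1.04 (1.03 to 1.06) and 0.852 (0.837 to 0.867) in fibroblast-like cells. Type V chains were a larger part in mural-like cells, with Col5a2 at 11.9% and 9.35% and Col5a3 at 4.32% and 5.41%, where fibroblast-like cells had 3.79% and 4.52%, and 0.845% and 1.43%. Cancer-like cells had mostly Col3a1 (64.1% in WT, 62.7% in TSK) and Col5a1 (11.4% and 9.34%), and Col5a2 was only 0.151% and 1.74% of their sum. Their UMIs of Col3a1 were 4.05 times those of Col1a1 in WT (3.58 to 4.601) and 5.03 times in TSK (4.78 to 5.30), against 1.16 and 1.28 in fibroblast-like cells.

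**Figure D3:**
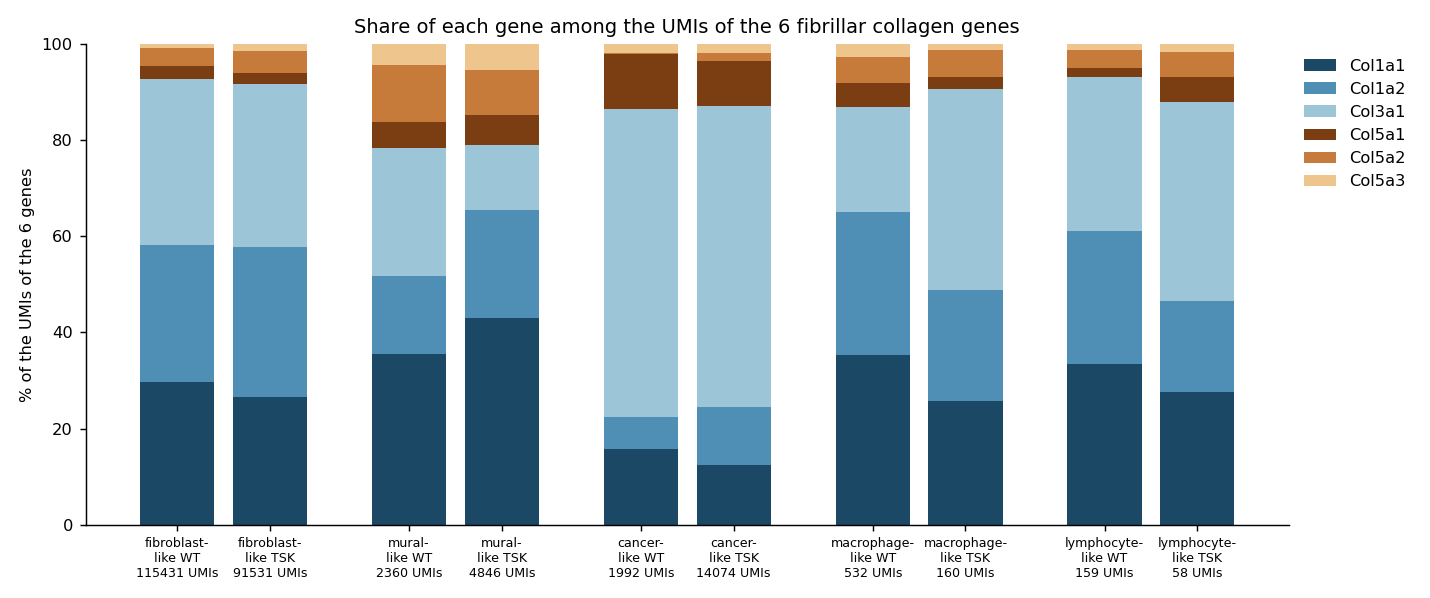
Percent of the UMIs of the 6 genes (y axis) that each gene gives, as stacked bars by lineage and library (x axis, with the number of UMIs behind each bar). Col3a1 gives 64.1% and 62.7% in cancer-like cells, and the type V genes take a larger part in mural-like than in fibroblast-like cells.

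Cells with markers of more than 1 lineage carried part of these values. In the mural-like class, 8 of 16 WT and 24 of 50 TSK cells also reached the score of a second lineage, and 6 and 17 of them that of fibroblasts. The mural-like cells with a second lineage held 70.7% of the collagen UMIs of their class in WT and 71.3% in TSK. The 8 WT and 26 TSK cells without a second lineage had 6586 and 6641 CPM of the 6 genes, with Col1a1 at 31.4% and 46.1% and Col5a2 at 15.3% and 7.49% of the sum. In endothelial-like cells, 97.7% of the collagen UMIs in WT and 87.9% in TSK lay in the 21 cells per library with a second lineage, nearly always mural. The 50 endothelial-like cells per library without one had 41.5 CPM in WT (interval 28.6 to 58.3) and 129 CPM in TSK (98.3 to 166). The WT value overlapped the lymphocyte-like level and the TSK value lay above it, and both were below the cancer-like level, so the place of endothelial-like cells in the order above rests on cells with a second lineage. In cancer-like cells, 1 WT and 34 TSK cells had a second lineage, and in TSK these held 2863 of 14074 UMIs. Without them Col1a1 was at 91.6 CPM in WT and 32.5 CPM in TSK, Col1a2 at 39.4 and 26.4 CPM and Col5a2 at 0.938 and 3.94 CPM, while Col3a1 stayed at 391 and 241 CPM. The TSK values of Col1a1 and Col1a2 then lay within the neutrophil-like intervals (7.57 to 38.8 and 2.93 to 27.5 CPM, on 7 and 4 UMIs).

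The presence of the transcripts in single cells was compared at equal depth by thinning each cell to 500 UMIs. Col3a1 was then expected in 93.0% of WT and 88.4% of TSK fibroblast-like cells (99.3% and 97.4% unthinned), in 47.2% and 29.3% of mural-like cells (87.5% and 90%), in 13.2% and 11.2% of cancer-like cells (76.1% and 80.1%) and in 0.792% and 1.41% of lymphocyte-like cells (10.1% and 5.57%, at medians of 6898 and 3003 UMIs). Cancer-like cells had medians of 39588 and 31710 UMIs. Col1a1 was expected in 90.9% and 85.3% of thinned fibroblast-like cells (99.3% and 97.9% unthinned), in 4.31% and 1.998% of cancer-like cells (27.3% and 21.6%) and in 0.847% and 1.31% of lymphocyte-like cells (10.7% and 4.53%). Col5a3 was expected in 12.8% and 16.7% of fibroblast-like cells (88.1% and 74.9%), 11.3% and 19.6% of mural-like cells (62.5% and 84%), 0.511% and 0.361% of cancer-like cells (18.2% and 8.18%) and 0.0385% and 0.0753% of lymphocyte-like cells (0.429% and 0.348%). At equal depth the share of WT fibroblast-like cells with Col5a3 was thus the lower of the 2 libraries, where the unthinned shares had the opposite order.

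The spread between cells of a class was wide. In WT fibroblast-like cells the 6 genes together ranged from 1838 to 113617 CPM per cell, with a median of 27185 and a middle 80% from 11759 to 55921 CPM. In TSK they ranged from 0 to 91299 CPM, with a median of 28271 and a middle 80% from 7979 to 54863 CPM. The distributions overlapped over most of their range and crossed each other. Cancer-like cells had a median of 199 CPM in WT and 204 CPM in TSK, with single cells up to 11192 and 25834 CPM. The tenth of cancer-like cells with most Col3a1 held 62.5% of its UMIs in WT and 47.0% in TSK, and the tenth with most Col1a1 held 91.1% and 93.4%. Col3a1 was thus spread over many cancer-like cells, with medians of 87.2 and 142 CPM per cell, while the median of Col1a1 was 0 in both libraries.

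**Figure D4:**
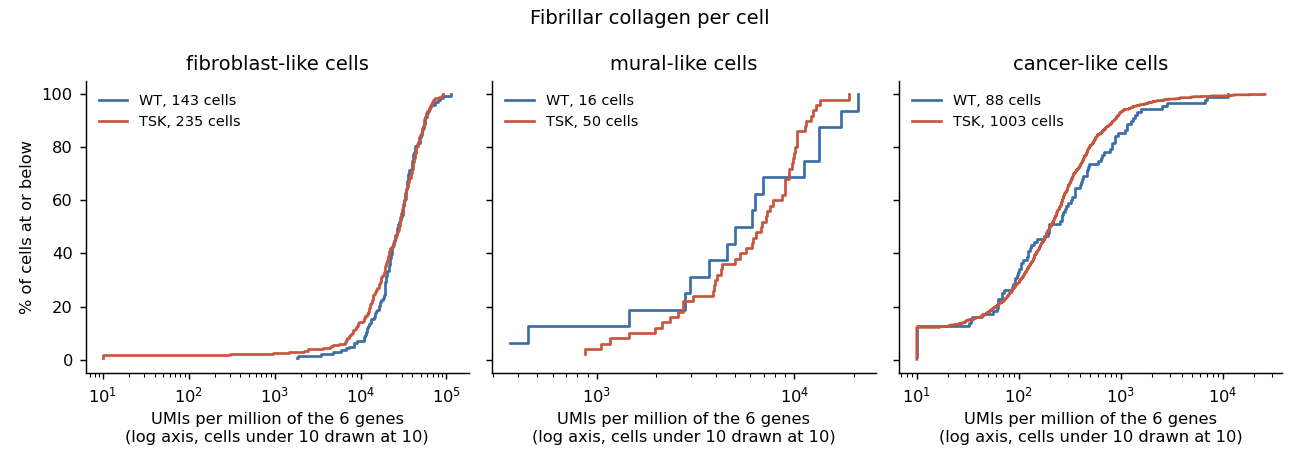
Percent of cells (y axis) at or below a given level of the 6 genes together in CPM (x axis, log scale, with cells under 10 CPM drawn at 10), for WT in blue and TSK in red. The WT and TSK lines of fibroblast-like cells cross and have medians of 27185 and 28271 CPM, and cancer-like cells have medians of 199 and 204 CPM.

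Within fibroblast-like cells the chains of type I went together most closely. Spearman's rho of Col1a1 and Col1a2 CPM over single cells was 0.88 in both libraries (143 WT and 235 TSK cells), and that of Col1a2 and Col3a1 was 0.73 in WT and 0.69 in TSK. Col5a3 was the member least tied to the rest in WT, with rho of 0.05 to Col1a1 and to Col3a1 and -0.05 to Col1a2, and the lowest rho of any pair in TSK was 0.26. These values describe cells that share a library and differ in depth. Fibroblast-like cells with a UMI of Clec3b, Pi16 or Cd34, markers of adventitial or universal fibroblasts, numbered 131 in WT and 188 in TSK, and 12 and 47 had none. Col3a1 was at 12441 and 12318 CPM in the former and 3849 and 5019 CPM in the latter, while Col5a3 was at 279 and 400 CPM against 416 and 707 CPM and Col1a1 differed less (10172 and 8419 CPM against 9934 and 8990 CPM). Median depths were 25002 and 11250 UMIs with such a UMI and 20456 and 9011 without.

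The next question was whether fibrillar collagen expression differed between the tumors of TSK and WT mice. Over all kept cells the 6 genes were at 7248 CPM in WT and 2472 CPM in TSK, a 2.93-fold lower level in TSK (log2 ratio -1.55, interval -1.56 to -1.54). The libraries also differed in makeup, and the part of this in the difference was not tested. Fibroblast-like cells held 19.8% of the WT and 6.24% of the TSK UMIs, but were 9.92% and 7.94% of the cells. Cancer-like cells held 19.0% and 73.2% of the UMIs. The lower level in TSK did not hold under the study's upper limits of 10000 UMIs and 10000 genes per cell. There the log2 ratio was 1.87. Of the fibroblast-like cells, 83.2% in WT and 56.6% in TSK were above 10000 UMIs. With equal weight for each cell the log2 ratio over all kept cells was -0.33. Dissociation and dead cell removal also set which cells enter a library, and their part in the difference was not tested.

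Within fibroblast-like cells the sum of the 6 genes was nearly level between the genotypes (log2 ratio of TSK over WT -0.09, interval -0.10 to -0.08). Col1a1 was lower in TSK (-0.25, interval -0.28 to -0.23), Col3a1 (-0.12) and Col5a1 (-0.14) slightly so, and Col1a2 (0.04) and Col5a2 (0.17) were slightly higher by total UMIs but lower relative to the median of all genes (-0.21 and -0.08). Under the study's upper limits the sum was at 0.13, Col3a1 at 0.28 (interval 0.18 to 0.38) and Col1a1 at -0.0017 (-0.10 to 0.10), so the lower values in TSK of Col1a1 and Col3a1 did not hold there. Col5a3 was at 289 CPM in WT and 460 CPM in TSK, a 1.59-fold higher level (log2 ratio 0.67, interval 0.55 to 0.79). It was the only 1 of the 6 members past 1.5-fold. Of 8740 genes with at least 50 UMIs in these cells, 29.9% were past 1.5-fold, 23.3% higher and 6.52% lower in TSK, so that 1 of 6 is not above the background. The median log2 ratio of all these genes was 0.25 and that of the members was -0.04. Relative to that shift, the sum was at -0.33, Col1a1 at -0.50 and Col5a3 at 0.42, which is under 1.5-fold. On that scale 956 genes were past 1.5-fold higher and 1049 lower (47.7% of the calls higher, against 78.2% when scaled by total UMIs). The fibroblast-like cells also differed in depth. Between 10000 and 40000 UMIs, a range chosen after seeing the data, the sum was at 0.11, Col1a1 at 0.03, Col1a2 at 0.34 and Col5a3 at 0.75.

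The direction of Col5a3 was the same on either side of the Clec3b, Pi16 or Cd34 split, with log2 ratios of 0.52 (interval 0.39 to 0.66) in cells with such a UMI and 0.76 (0.45 to 1.09) in cells without. The direction of Col1a1 was also shared (-0.27 and -0.14), whereas Col3a1 was at -0.01 and 0.38. The share of Col5a3 in the 6-gene sum was 0.845% in WT and 1.43% in TSK, and its UMIs were 0.330 of those of Col5a1 in WT (0.307 to 0.355) and 0.580 in TSK (0.541 to 0.621). Ratios within a library do not depend on the scaling. These values rest on how fibroblast-like cells were named. Under the simplest rule, most raw marker UMIs, the class held 496 cells, of which 361 lay in the fibroblast cluster, and the log2 ratio was -0.79 for the sum and -0.043 for Col5a3. Under rules with trimmed marker lists, and with clusters named against the median cluster, the sum was at -1.54 to -2.19 and Col5a3 at -0.74 to -1.39, so the direction of Col5a3 turned there.

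**Figure D5:**
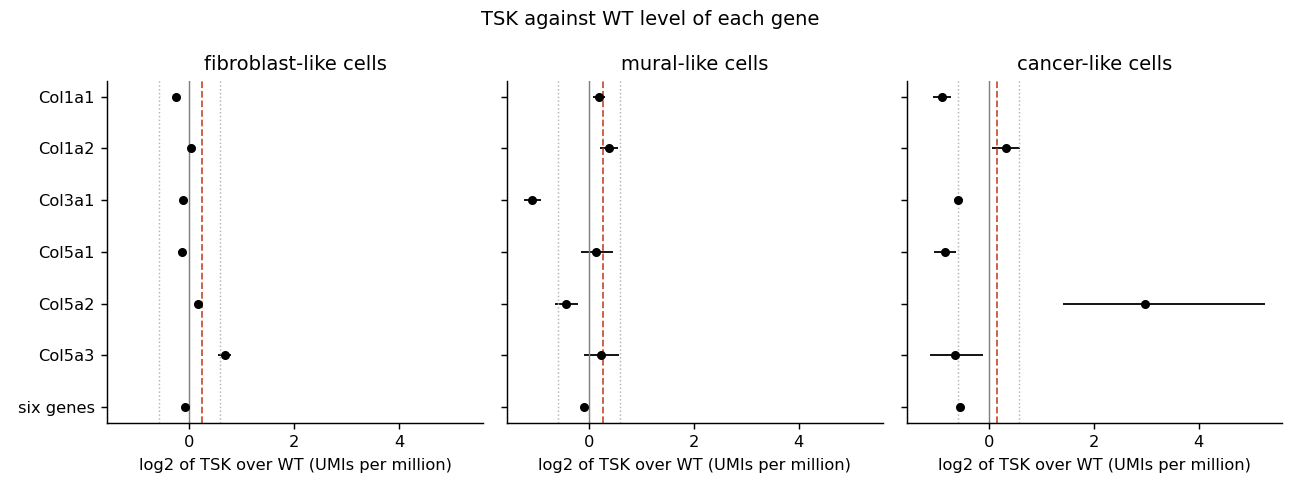
Log2 ratio of TSK over WT level (x axis) of each gene and of the 6 genes together (y axis) in fibroblast-like, mural-like and cancer-like cells, with exact 95% conditional intervals of counting error. Solid lines mark no difference, dotted lines 1.5-fold, and dashed lines the median over every gene that reached 50 UMIs there. Col5a3 at 0.67 is the one gene past 1.5-fold in fibroblast-like cells and Col3a1 at -1.08 the one in mural-like cells.

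In mural-like cells the sum was likewise near level (-0.09, interval -0.16 to -0.02), and its sign changed when the barcodes of both libraries were kept (0.55) and without cells of a second lineage (0.012). Col3a1 was at 2121 CPM in WT and 1004 CPM in TSK (log2 ratio -1.08, interval -1.24 to -0.92), the 1 of 6 members past 1.5-fold, where 43% of 3150 genes were (30.8% higher, 12.2% lower). It was -1.004 without cells of a second lineage, which left 8 WT and 26 TSK cells, and -0.32 when the barcodes of both libraries were kept. With Leiden clusters Col3a1 was at -1.02. Under the study's upper limits it was at -0.43 with an interval that included 0 (-1.21 to 0.43). Col5a2 was at -0.44, but at 0.21 with the barcodes of both libraries kept. Col1a2 was at 0.38, and the intervals of Col5a1 and Col5a3 included 0. The median over all genes was 0.28 and that over the members 0.17, so that Col1a1 (0.19) was below it. With Leiden clusters Col1a1 was at -0.26 (interval -0.35 to -0.18). With 16 WT cells these values lean on few cells.

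In cancer-like cells the sum was at 614 CPM in WT and 421 CPM in TSK (log2 ratio -0.55, interval -0.61 to -0.48), and -0.80 without cells of a second lineage. The class did not hold the same cells in each library. Of its cells, 534 lay in a cluster of 60 WT and 489 TSK cells that was named cancer and had 429 CPM of the 6 genes. Another 362 lay in a cluster of 4 WT and 401 TSK cells that had 282 CPM and that the clustering left unnamed. Other unnamed clusters held 62 and 9 of its cells. The keratins named above also differed between the libraries in this class. The part of either in the collagen ratios was not tested. Col3a1 was at -0.58, Col1a1 at -0.89, Col5a1 at -0.83 and Col5a3 at -0.63. Col1a2 was at 0.32 (interval 0.06 to 0.59), but at -0.57 without cells of a second lineage, -0.70 with Leiden clusters and -1.496 with the barcodes of both libraries kept. Of the 6 members 3 were past 1.5-fold lower and 1, Col5a2, past it higher (2.99, on 3 WT UMIs, interval 1.42 to 5.27), where 13.5% and 24.2% of 12787 genes were (37.7% in either direction). The median over all genes was 0.17 and that over the members -0.61. The 88 WT cells stand against 1003 TSK cells. The upper limit of 10000 UMIs left out 77 of these WT and 878 of these TSK cells (87.5% in each library). Under it the log2 ratio of the sum was 1.13 (interval 0.19 to 2.28).

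Genes that act on the chains after transcription were taken from lists of collagen modifying, processing and binding proteins. Of 19 measured genes of chain modification, folding and export, 7 were past 1.5-fold higher in TSK fibroblast-like cells and 0 lower, where 23.3% of all 8740 genes were past it higher and 6.52% lower. The median log2 ratio of the list was 0.57, against 0.25 over all genes. The 5 largest were all of this list. Colgalt1, which attaches galactose to hydroxylysine, was at 65.1 CPM in WT and 187 CPM in TSK (log2 ratio 1.52, interval 1.29 to 1.75). P4ha2 (0.77) and P4ha1 (0.68) encode subunits of prolyl 4-hydroxylase, which stabilises the helix, and Plod3 (0.68) and Plod1 (0.67) lysyl hydroxylases. The collagen chaperone Serpinh1 was at 1386 and 1588 CPM (0.20). Relative to the shift of 0.25, only Colgalt1 of these stays past 1.5-fold. The ratios of list genes, here and below, were not recomputed under the other naming rules and filters, under which the members moved.

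Of 11 measured genes of propeptide removal and crosslinking, 2 were past 1.5-fold lower and 0 higher (median 0.27). Over all genes 6.52% were past it lower and 23.3% higher, with a median of 0.25, and the counts that follow are to be read against the same shares. They were Adamts3, a procollagen N-propeptidase (21.02 and 10.5 CPM, -0.996), and Loxl4, a lysyl oxidase-like enzyme (20.7 and 12.3 CPM, -0.75). Lox, the main lysyl oxidase, was at 851 and 1252 CPM (0.56). Of 8 measured fibril-associated and beaded-filament collagens, 2 were past 1.5-fold lower and 0 higher (median -0.16), Col6a5 at 57.4 and 8.78 CPM (-2.71, interval -3.37 to -2.10) and Col6a6 at 23.1 and 4.92 CPM (-2.23), whereas Col6a1, Col6a2 and Col6a3 were at -0.46, -0.19 and -0.13. Of 3 measured other fibrillar chains, Col11a1, whose product joins type V in fibril cores, was past 1.5-fold lower (16.3 and 8.43 CPM, -0.95). Of 7 measured receptors and uptake genes, Itga11, an integrin subunit that binds type I collagen, was past it lower (60.1 and 39.3 CPM, -0.61). These counts are scaled by total UMIs. Relative to the shift of 0.25, Col6a1 (-0.46), the fibrillar chain Col24a1 (-0.53) and the receptor Ddr2 (-0.48) were past 1.5-fold lower too.

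The genes whose pattern was most like the mean of the 6 members were sought over 13 sums of a lineage in a library with at least 20 cells, by Pearson's r of log2(CPM + 10) among 15100 genes. Fstl1 (r = 0.988), Sulf1 (0.988), Col6a1 (0.987), Col6a2 (0.985), Col12a1 (0.984), Sod3 (0.983), Il1r1 (0.983), Slit3 (0.980), Nbl1 (0.979) and Rbms3 (0.979) came first. Fstl1, a secreted glycoprotein, was at 1976 and 2483 CPM in WT and TSK fibroblast-like cells and at 2.83 and 6.31 CPM in lymphocyte-like cells. Between the members themselves r ran from 0.88 (Col3a1 and Col5a2) to 0.99 (Col1a2 and Col5a2). The sums share 2 libraries, so these values describe likeness and no more.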

How the data were processed

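Subcutaneous tumors were pooled by genotype, dissociated with collagenase, hyaluronidase and trypsin, depleted of dead cells, and captured with 10x Genomics 3′ chemistry. The authors aligned reads to mm10 and counted UMIs with Cell Ranger (7.1.0 in the file headers, 7.1.1 in the submitters' processing notes), and the deposited values are raw UMI counts per gene and barcode, without normalization. Barcodes in both libraries were removed and cells kept with at least 200 genes, 500 UMIs and at most 10% mitochondrial UMIs. The study's upper limits of 10000 UMIs and genes were used only as an alternative. Depth is given with the cells kept, and intervals reflect counting error at 95%.

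First, each cell was given the lineage with most raw marker UMIs (at least 3 markers, lineages of at least 10 cells). The median marker share of those cells then scaled the score described above. The members, lists and markers were chosen with earlier results of these data known, and the naming of cells and of clusters was revised while collagen values were in view. Clusters for comparison used 2000 variable genes without the listed genes, 30 principal components, 20 neighbours and Leiden resolution 1. Genes named beyond the members include the 5 largest and 5 smallest ratios among list genes with at least 50 UMIs. The 10 genes most like the members are also named. Others were chosen after their values were seen (Serpinh1, Lox, Col6a1, Col6a2, Col6a3, Col24a1, Ddr2 and Itga11). On simulated counts for fibroblast-like cells (8740 genes, 200 changed 2-fold), 96.0% of intervals held the true ratio. These counts were drawn as the intervals assume, without spread between cells or mice. The simulation checks the calculation and cannot show how well the intervals hold in these data. The software was scipy 1.17.1 with numpy 2.4.6 and pandas 2.3.3 under Python 3.11.15, scikit-learn 1.9.0, leidenalg 0.10.2 with igraph 0.11.9, and matplotlib 3.10.9.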

Additional observations from a re-analysis of the deposited data

Results flagged for a closer look

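Several members differed in direction between lineages, with each interval of counting error clear of 0. The difference between lineages was not tested, since each genotype has 1 library. Col1a1 was lower in TSK fibroblast-like cells (log2 ratio -0.25) and cancer-like cells (-0.89) and higher in mural-like cells (0.19), where it was lower relative to the median of all genes (-0.086), with Leiden clusters (-0.26) and under the study's upper limits (-0.27), so that the opposite directions did not hold in these. Col5a2 was higher in TSK fibroblast-like cells (0.17, but -0.081 relative to the median of all genes) and cancer-like cells (2.99, on 3 WT UMIs) and lower in mural-like cells (-0.44). With the barcodes of both libraries kept it was at 0.21 in mural-like and -0.086 in cancer-like cells, so these directions turned. Col5a3 was higher in TSK fibroblast-like cells (0.67) and lower in cancer-like cells (-0.63, on 39 WT UMIs). With Leiden clusters the cancer-like value was -0.33 with an interval that included 0 (-0.80 to 0.18). The fibroblast-like direction turned under several of the naming rules that were tried and not used.

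Fibrillar collagen was also present in barcodes that the comparisons left out or did not name, above the level that 3 UMIs would give. Barcodes found in both libraries that passed the other limits held 3384 CPM of the 6 genes in WT (251 barcodes, median 961 UMIs) and 626 CPM in TSK (255 barcodes, median 756 UMIs), with Col1a1 at 35.1% of the 6-gene sum in WT and 21.8% in TSK. Unnamed cells held 1658 CPM in WT and 504 CPM in TSK.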

How the results depend on the processing

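The part of the 6 genes' UMIs that lay in fibroblast-like cells (87.5%) was 86.1% under the study's upper limits, 87.1% with up to 20% mitochondrial UMIs, 86.0% with the barcodes of both libraries kept, 87.2% with Leiden clusters and 90.7% without cells of several lineages.

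The log2 ratio of the sum in fibroblast-like cells (-0.09) was 0.13 under the upper limits, -0.13 with shared barcodes kept, -0.069 with Leiden clusters, -0.10 without cells of several lineages, -0.074 with equal weight per cell, -0.33 scaled by the median of gene ratios and 0.11 in cells of 10000 to 40000 UMIs. In mural-like cells (-0.09) it was 0.55 with shared barcodes kept, -0.40 with Leiden clusters, 0.012 without cells of several lineages and -0.36 scaled by the median. In cancer-like cells (-0.55) it was 1.13 under the upper limits, -0.94 with shared barcodes kept, -1.04 with Leiden clusters, -0.80 without cells of several lineages and -0.71 scaled by the median. Over the whole library (-1.55) it was 1.87 under the upper limits, -1.57 with up to 20% mitochondrial UMIs, -1.44 with shared barcodes kept, -0.33 with equal weight and -1.72 scaled by the median. The count of genes past 1.5-fold in fibroblast-like cells (2610) was 1328 under the upper limits and 1108 with at least 200 UMIs per gene, where fewer genes were tested.

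Naming rules tried and not used, all chosen after seeing the data, gave for the sum in fibroblast-like cells -0.79 (most raw marker UMIs), -0.51 and -0.25 (a share of at least 0.1% or 0.2%), and, with markers left out unless they stood 3-, 5- or 10-fold over the other lineages (trimmed lists), -2.08 and -2.04 at 3-fold, -2.19 and -1.87 at 5-fold and -2.19 and -1.54 at 10-fold (2 or 3 markers needed). Clusters named against the median cluster gave -2.003. Col5a3 turned to -0.043 under most raw marker UMIs, to -1.33, -1.25, -1.39, -1.04, -1.38 and -0.74 under the trimmed lists in the same order and to -1.20 under those clusters. These rules put more cells of other clusters in the class, with 47.7%, 47.0%, 41.9%, 57.6%, 42.2% and 63.6% overlap for the trimmed lists. Another rule tried and not used, with 3 passes of the score, gave 360 fibroblast-like cells with 88.1% overlap. There the sum was at -0.094. Col5a2 in cancer-like cells turned to -0.086 with shared barcodes kept. The cause of these changes was not tested.

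No paired analysis was possible because each genotype has 1 library. Leaving out a replicate was likewise not possible. The main limits are 1 pool per genotype, 16 WT mural-like cells, and WT fibroblast-like cells sequenced more deeply than TSK ones.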
